A study of Rattus norvegicus with 18 samples.

Results

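The comparison described here set the left atrium (LA) against the right atrium (RA) of the same healthy rat hearts, across all genes. The members were the 8 libraries whose titles name these 2 chambers, 4 from LA and 4 from RA, out of 18 libraries in the series. LA and RA tissue came from 4 male Sprague Dawley rats, with no treatment and no genetic change in any group. Age was 59 days for rats 1 and 2 and 70 days for rats 3 and 4. The LA and RA libraries with the same title ending were taken as one animal. The series centres on the sinoatrial node and measured total RNA by sequencing. Its other libraries were the superior and inferior sinoatrial node (sSAN and iSAN, 4 each) and the left ventricle (LV, 2), and they are used here only to place a level. Each sample was a piece of whole tissue, so a lower level can stand for fewer cells of a type or for less RNA per cell, and these cannot be told apart.

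The atria form from a common heart tube, and the left side of the embryo is set apart from the right by Nodal signalling before the chambers form. The right atrium carries the sinoatrial node at its junction with the caval veins, and its trabeculated muscle makes Bmp10, a secreted bone morphogenetic protein (BMP). BMP ligands bind paired receptor kinases that phosphorylate receptor SMAD proteins, and the nuclear SMAD complex turns on Id genes and the inhibitory SMADs, which feed back on the pathway.

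In the 8 libraries, 20756462 to 22562828 reads were assigned to genes in LA and 18548014 to 19946678 in RA. All 4 LA totals lay above all 4 RA totals (exact two-sided permutation p = 0.0286, the smallest that 4 against 4 allow). The mitochondrial genome gave 19.5 ± 0.892% of the counts in LA and 17.5 ± 1.01% in RA (SD, n = 4 each, exact two-sided permutation p = 0.0571). Here and below, the permutation tests treat the libraries as independent and do not use the pairing by rat. Both tissues carried the main genes of atrial muscle at levels that differed by less than their spread. Sarcolipin (Sln), the atrial regulator of the calcium pump, averaged 2023 ± 218 CPM (counts scaled to library size over the 8 libraries) in LA and 2008 ± 86.2 CPM in RA. Atrial myosin light chain Myl4 averaged 6761 ± 1221 CPM in LA and 6733 ± 1412 CPM in RA, and cardiac myosin heavy chain Myh6 22948 ± 2397 and 23649 ± 1171 CPM. By the test below, 5 of 16 tested genes of an atrial muscle list were nevertheless called lower in LA (Bmp10, Nppa, Kcnj3, Kcnk3 and Tbx5). Higher calls numbered 0, and 0 by DESeq2 as well, beside 4.26% lower and 4.37% higher over all genes tested. In a fit that shared its spread with all 5 regions, Nppa, Kcnj3, Kcnk3 and Tbx5 were not called (adjusted p = 0.798, 0.22, 0.305 and 0.358). In this report ± is the SD over the 4 rats for a level and the standard error for a log2 fold change.

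Of 13904 genes with enough counts to test, 608 were higher and 593 were lower in LA than in RA at an adjusted p under 0.05 (edgeR quasi-likelihood test), which is 4.37% and 4.26% of the genes tested. With rat as a block the counts were 1247 higher and 1245 lower, and 1195 of the 1201 genes called without the block were called in the same direction with it. Counts called among list members without the block are to be read beside these 4.37% and 4.26%. Counts given with the block are to be read beside its 1247 higher and 1245 lower of 13904 genes. At an unadjusted p under 0.05 there were 2937 of the 13904 genes over both directions, and DESeq2 called 1628 genes. List counts given by those 2 measures are to be read beside these. Most differences were small. Of the 1201 genes, 597 differed by less than 1.5-fold, 284 by 1.5 to 2-fold, 194 by 2 to 3-fold and 126 by more than 3-fold. At the stringent threshold, an adjusted p under 0.01 and a fold above 3, 57 genes were higher (0.41%) and 38 were lower (0.273%). There were 37 genes under 1 CPM in each RA library and above 1 CPM in each LA library, and 18 genes with the reverse. All 4 LA libraries lay above all 4 RA libraries for 575 of the 608 genes called higher, and below them for 572 of the 593 called lower. Of 183 called genes named in the text, 144 kept the call with each of the 8 libraries left out in turn, and those that did not are given with their results. In a fit that shared its spread with all 5 regions, 67 of the 183 lost the call, and only some of the 67 are marked where their results are given. The median log2 fold change over all tested genes was -0.00059, a value that the scaling of the libraries sets near 0. Fold changes are given as log2 of LA over RA, levels as CPM in rats 1 to 4 in that order, and p-values as adjusted over all genes tested.

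**Figure D1:**
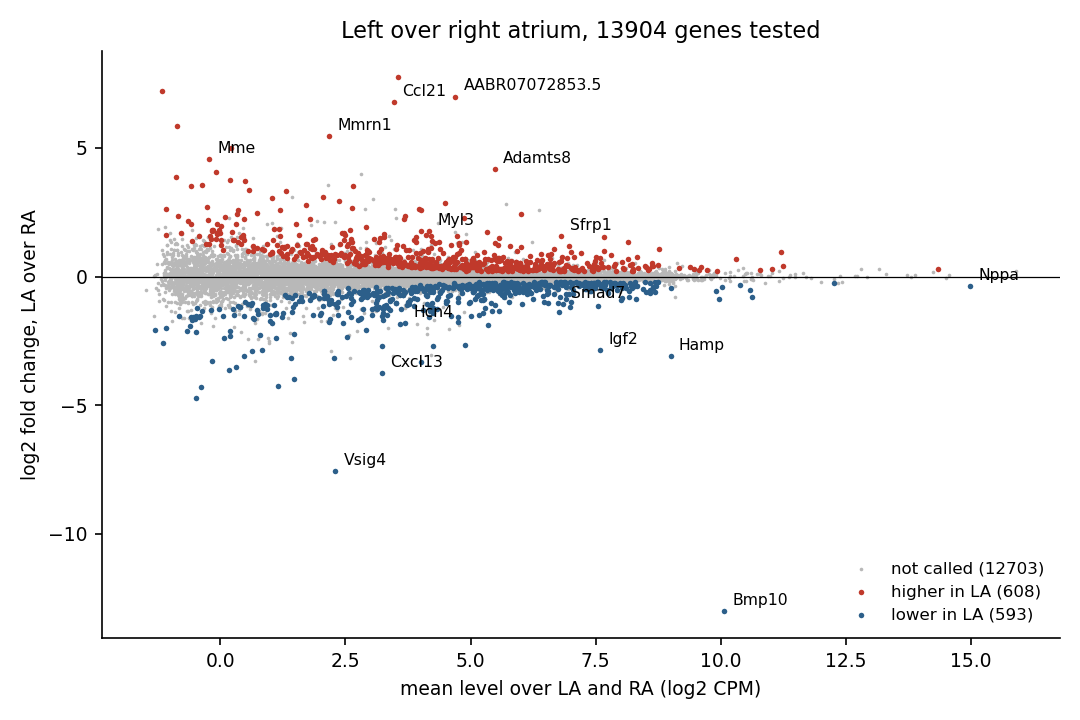
Each point is 1 of 13904 genes, with its mean level over LA and RA (log2 CPM) on the x axis and its log2 fold change of LA over RA on the y axis. Red points are the 608 genes called higher in LA, blue points the 593 called lower and grey points the rest, and among the named genes Bmp10 lies farthest below 0.

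Bmp10 (ENSRNOG00000009316, chr4:119225040-119230728 on the plus strand of the Ensembl rat reference the study used, protein coding) had the largest difference among the named genes lower in LA, with 0.0891, 0.609, 0.191 and 0.1001 CPM in LA, against 2678, 2094, 2131 and 1647 CPM in RA. Its log2 fold change was -13.00 ± 0.35 (adjusted p = 5.41e-07). No LA library reached 1 CPM while the lowest RA library stood at 1647 CPM.

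**Figure D2:**
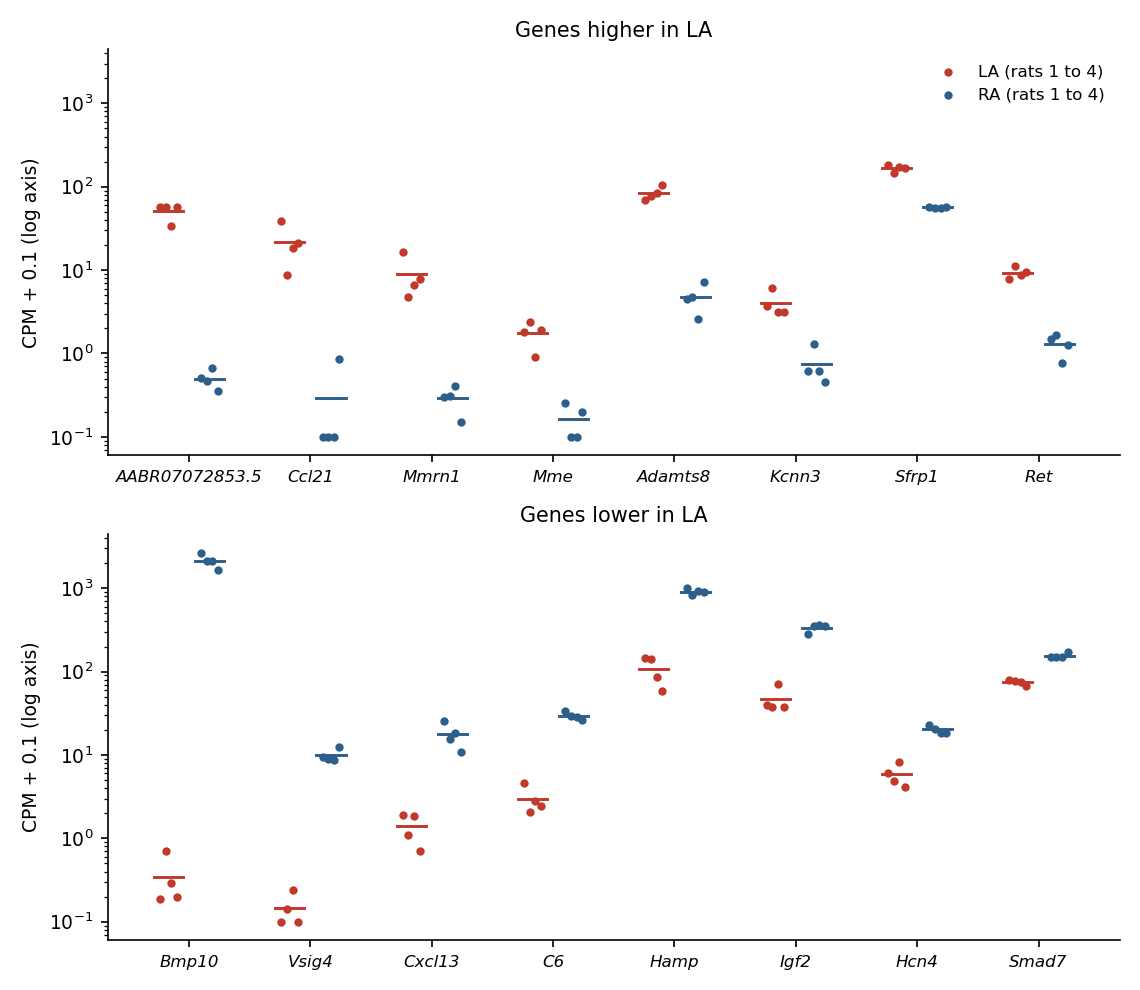
CPM + 0.1 on a log axis for 8 genes higher in LA (top) and 8 genes lower in LA (bottom), with red points for the 4 LA libraries, blue points for the 4 RA libraries and a line at each mean. The points of the 2 chambers do not overlap for any of the 16 genes, with Bmp10 under 1 CPM in every LA library and at 1647 CPM or more in every RA library.

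Several genes known to respond to BMP signalling were lower in LA, as Bmp10 was. Whether their levels follow that of Bmp10 was not tested. The promoters of 3 genes that were lower in LA are shown because their letters hold elements tied to this pathway or to cardiac GATA factors: Bmp10 itself, Hamp (hepcidin, the iron-regulating peptide that BMP signalling drives in liver) and Smad7 (an inhibitory SMAD). Each is the 250 bases before the RefSeq transcription start on GRCr8, 5′ to 3′ on the strand of the gene, with capitals for matches to GGCGCC (the GC-rich SMAD element) and to AGATAA or TTATCT (the GATA motif on either strand). Both strands were searched, and the 2 motifs share no base in these windows.
Bmp10, chr4:121429125-121429374, plus strand: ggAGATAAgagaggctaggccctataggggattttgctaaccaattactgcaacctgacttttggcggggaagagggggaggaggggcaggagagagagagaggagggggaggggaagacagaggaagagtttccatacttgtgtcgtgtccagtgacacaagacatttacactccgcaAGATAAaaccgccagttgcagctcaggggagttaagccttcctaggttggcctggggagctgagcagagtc
Hamp, chr1:95300272-95300521, minus strand: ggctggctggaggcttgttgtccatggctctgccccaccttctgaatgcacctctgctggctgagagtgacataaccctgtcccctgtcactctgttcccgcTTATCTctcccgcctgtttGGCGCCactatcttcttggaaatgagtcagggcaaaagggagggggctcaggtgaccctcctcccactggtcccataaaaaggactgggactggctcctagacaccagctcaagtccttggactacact
Smad7, chr18:71263258-71263507, plus strand: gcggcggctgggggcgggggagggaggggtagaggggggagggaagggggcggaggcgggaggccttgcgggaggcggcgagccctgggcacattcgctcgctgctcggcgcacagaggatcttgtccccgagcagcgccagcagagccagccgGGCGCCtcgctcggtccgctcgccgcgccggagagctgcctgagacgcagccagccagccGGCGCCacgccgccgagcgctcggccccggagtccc
Bmp10 held 2 GATA matches, which begin 248 and 71 bases before the start, and no GGCGCC. Hamp held 1 GGCGCC match at 129 bases and 1 GATA match at 148 bases before the start, and Smad7 held 2 GGCGCC matches at 96 and 36 bases. Over 33469 RefSeq rat promoters of the same length, 8.69% held GGCGCC and 10.3% held the GATA motif. Of the same windows for Id1 and Id3, neither held a match to these 2 motifs, and Smad9 held 1 GGCGCC match at 15 bases. The 3 windows shown were chosen for their matches, so they cannot be set against the shares over all promoters. Promoters of Id2, Id4 and Atoh8 were looked up but not searched for the motifs. A match says only that these letters are present.

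Id1, Id2 and Id3, inhibitors of helix-loop-helix factors and the classic BMP target genes, were all lower in LA. Id3 had 40.96, 44.8, 43.4 and 39.4 CPM in LA, against 92.7, 79.03, 85.4 and 94.6 CPM in RA (-1.06 ± 0.07, adjusted p = 3.52e-06). Id1 (-1.09 ± 0.13, adjusted p = 0.000456), Id2 (-1.02 ± 0.09, adjusted p = 2.35e-05) and the related Id4 (-1.22 ± 0.10, adjusted p = 2.6e-05) differed by a like amount. The inhibitory SMADs were lower by like or larger amounts. Smad7 had 79.1, 77.9, 75.3 and 67.4 CPM in LA, against 151, 151, 150.2 and 170.4 CPM in RA (-1.06 ± 0.07, adjusted p = 2.65e-06), and Smad6 had 20.1, 19.4, 16.3 and 10.4 CPM in LA, against 48.5, 47.3, 44.7 and 49.6 CPM in RA (-1.52 ± 0.18, adjusted p = 0.000831). In neither gene did the chambers overlap. Atoh8, a helix-loop-helix factor induced by BMP ligands in endothelium, averaged 13.5 ± 1.51 CPM in LA and 40.1 ± 6.02 CPM in RA (adjusted p = 8.03e-06). Smad9, the third BMP receptor SMAD, was present at only 0.228 ± 0.183 CPM in LA and 1.03 ± 0.551 CPM in RA and was also lower (-2.13 ± 0.56, adjusted p = 0.0345), a call lost in 6 of the 8 fits that leave out 1 library (adjusted p up to 0.115).

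Hamp differed more than the Id and SMAD genes did. It had 146, 141, 86.8 and 58.5 CPM in LA, against 1008, 838, 914 and 892 CPM in RA, a log2 fold change of -3.08 ± 0.32 (adjusted p = 0.00179). The LA values of the 59-day rats lay above those of the 70-day rats, while the 4 RA values stayed within 838 to 1008 CPM. By a test of the interaction of chamber and age (edgeR quasi-likelihood test), Hamp was not called. Its unadjusted p was 0.00629 and its adjusted p 0.999973. With rat as a block Hamp kept the lower threshold (adjusted p = 0.0143) but not the stringent one.

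Over the whole list of BMP and TGF-beta ligands and regulators, 30 of 35 genes were tested, 2 were higher and 9 were lower in LA, beside 4.37% and 4.26% of all genes tested. Its median log2 fold change was -0.09, beside -0.00059 over all genes. The receptors themselves gave no call. The type I receptor Bmpr1a had a log2 fold change of -0.01 ± 0.06, the type II receptor Bmpr2 0.03 ± 0.09 and the endothelial Bmp10 receptor Acvrl1 -0.08 ± 0.06. Endoglin (Eng), the co-receptor that presents Bmp9 and Bmp10 to Acvrl1, was lower at 286 ± 40.8 CPM in LA and 438 ± 20.4 CPM in RA (adjusted p = 0.00115, 0.118 in the fit with all 5 regions). Among other ligands, Bmp2 (-0.16 ± 0.13), Bmp4 (0.20 ± 0.11) and Bmp6 (-0.29 ± 0.25) did not pass the test. The extracellular antagonist Chrd (chordin) was higher, with 6.33, 5.35, 4.11 and 7.01 CPM in LA and 3.84, 2.43, 2.72 and 3.74 CPM in RA (adjusted p = 0.0273), as was the chordin-like modulator Bmper (0.75 ± 0.19, adjusted p = 0.0298). A related antagonist, Chrdl1, was lower (-1.04 ± 0.16, adjusted p = 0.00216), as was the low-level ligand Gdf10 (0.317 CPM in LA and 1.04 CPM in RA). The calls of Chrd, Bmper and Gdf10 were each lost in 5 of the 8 fits that leave out 1 library, with adjusted p up to 0.077, 0.0876 and 0.103.

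**Figure D3:**
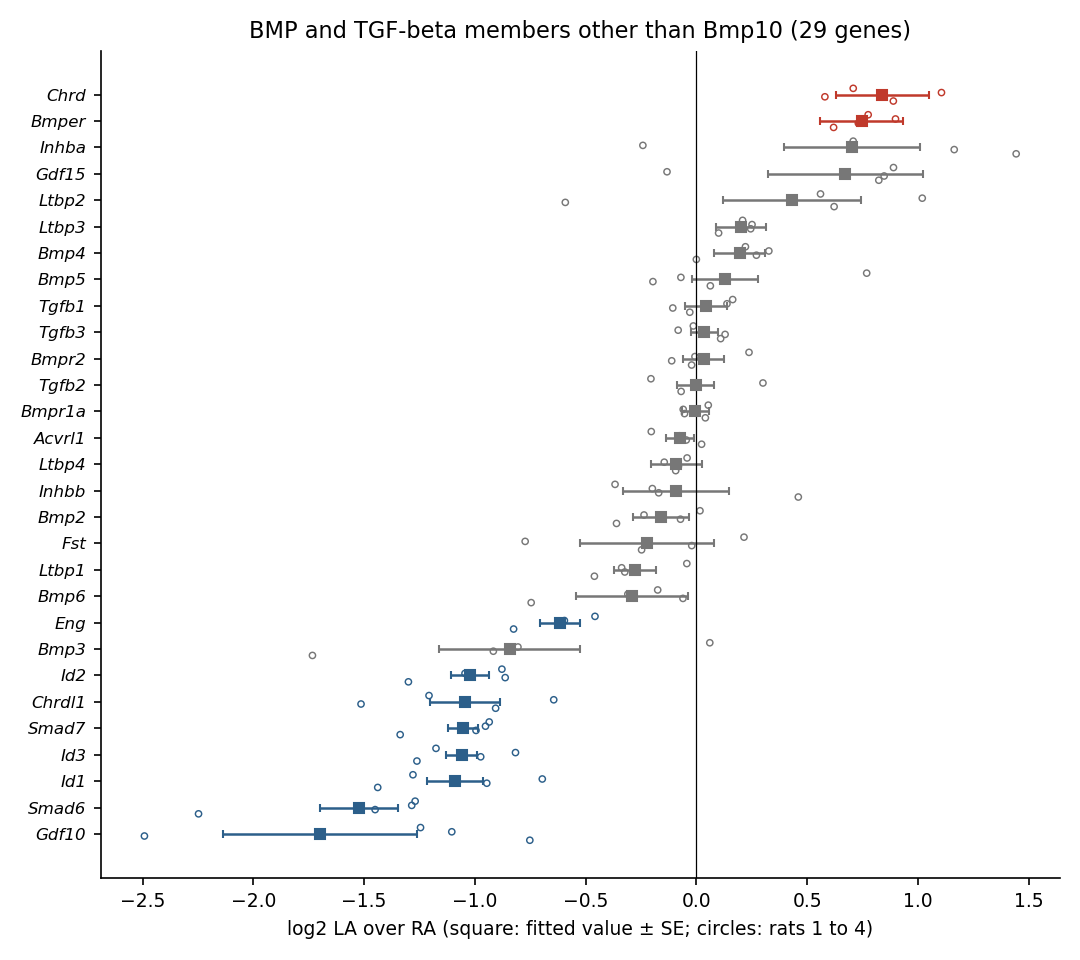
Log2 LA over RA for the 29 tested BMP and TGF-beta members other than Bmp10, with a square and bar for the fitted value and its standard error and open circles for rats 1 to 4. Red marks the 2 genes called higher in LA (Chrd and Bmper), blue the called lower genes and grey the rest, and the Id and inhibitory SMAD genes lie near or below -1 while the receptors lie near 0.

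Of 20 tested factors of left-right and atrial identity, 1 was higher and 3 were lower in LA, with a median of -0.18, and with rat as a block 3 were higher and 7 lower. Mef2c, a muscle transcription factor, was the factor called higher (153 ± 7.53 CPM in LA and 131 ± 5.05 CPM in RA, log2 fold change 0.22 ± 0.06, adjusted p = 0.0299). Tbx5, a T-box factor of atrial identity, had 201, 206, 213 and 199.7 CPM in LA, against 272, 248, 248 and 253 CPM in RA (-0.32 ± 0.05, adjusted p = 0.00288). The chambers did not overlap for Tbx5, although the difference was small. Tbx20, another T-box factor and a known target of BMP signalling in the embryonic heart, was lower at 104, 116, 88.02 and 99.5 CPM in LA, against 161, 185, 142 and 162 CPM in RA (-0.67 ± 0.09, adjusted p = 0.000907). Gata5 was also lower (-0.32 ± 0.07, adjusted p = 0.0151). With 1 library left out, Mef2c lost its call in 6 of 8 fits (adjusted p up to 0.08) and Gata5 without RA of rat 4 (0.0501), and in a fit sharing its spread with all 5 regions Tbx5 was not called (0.358). The genes gained under the block were Meis1 (adjusted p with the block = 0.0324) and Cited2 (0.0217) on the higher side and Gata4 (0.00754), Gata6 (0.0446), Tbx18 (0.0173) and Meis2 (0.0157) on the lower side.

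The remaining 10 factors passed neither fit. Nkx2-5, the cardiac homeodomain factor, had a log2 fold change of -0.15 ± 0.07, and Nr2f2, the orphan receptor that sets atrial against ventricular fate in mice, 0.10 ± 0.07. Tbx3 (-0.30 ± 0.20) and Shox2 (-0.77 ± 0.36), factors of the sinoatrial node, were low in both chambers, with Shox2 at 1.07, 2.22, 1.43 and 1.85 CPM in LA and 2.97, 1.14, 4.201 and 2.88 CPM in RA. Their spread between rats was wide at this level. Zfhx3 (0.27 ± 0.15) and Prrx1 (0.10 ± 0.17), both known from human atrial fibrillation loci, gave no call, nor did Nr2f1 (-0.25 ± 0.11), Hand2 (0.13 ± 0.10), Hey1 (-0.63 ± 0.26, with 0.053 in the 59-day rats alone) and Hey2 (0.22 ± 0.22). Nodal, Lefty1 and Lefty2, the embryonic left-side signals, and Hand1, Isl1 and Irx4 did not reach the count needed for a test.

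AABR07072853.5 (chr3:10384888-10432854, minus strand), an unnamed processed transcript, had 57.2, 57.6, 33.8 and 56.8 CPM in LA, against 0.409, 0.363, 0.564 and 0.253 CPM in RA, and a log2 fold change of 6.99 ± 0.27 (adjusted p = 8.12e-07). It lies 9062 bases from Ass1, the argininosuccinate synthase gene on the same strand, whose own level gave no call (0.49 ± 0.31, adjusted p = 0.41). Adamts8, a secreted metalloprotease, combined a high level with a large difference, at 69.5, 78.2, 84.6 and 106 CPM in LA, against 4.40, 4.71, 2.51 and 7.02 CPM in RA (4.18 ± 0.28, adjusted p = 0.000155). Every LA library was far above every RA library for both genes.

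Ccl21, the lymphatic chemokine that draws in T cells, was also among the 15 genes with the largest higher values. It had 38.9, 8.703, 18.5 and 21.3 CPM in LA, against 0, 0, 0 and 0.758 CPM in RA (6.79 ± 0.99, adjusted p = 0.00938, 0.0249 with rat as a block, 0.0567 without RA of rat 4). Mmrn1 (multimerin, a lymphatic endothelial and platelet protein) had 16.2, 4.70, 6.49 and 7.71 CPM in LA, against 0.205, 0.207, 0.307 and 0.0505 CPM in RA (adjusted p = 0.000421). For both genes RA was at or near 0 while LA varied several-fold between rats. Thbs4, a matrix thrombospondin, averaged 2.13 ± 0.871 CPM in LA and 0.154 ± 0.0603 CPM in RA, and Ntrk3, the receptor of neurotrophin-3, 1.44 ± 0.396 CPM in LA and 0.115 ± 0.0871 CPM in RA. Mme (neprilysin, the protease that degrades natriuretic peptides) averaged 1.64 ± 0.606 CPM in LA and 0.0636 ± 0.0765 CPM in RA (adjusted p = 0.000771, 0.281 in the fit with all 5 regions). Hoxd8, a homeobox gene, reached 1.01 CPM in LA and 0.0638 CPM in RA.

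Arpp21, a phosphoprotein regulated by cyclic AMP in neurons, averaged 11.5 ± 3.28 CPM in LA and 0.994 ± 0.588 CPM in RA (3.52 ± 0.38, adjusted p = 0.000459). Tmem171, a membrane protein, averaged 2.61 ± 0.5004 CPM in LA and 0.192 ± 0.0501 CPM in RA, and Pgpep1l, a peptidase-like gene, 1.23 and 0.103 CPM. AABR07006480.1, an unnamed coding gene, averaged 2.26 CPM in LA and 0.0641 CPM in RA. The tissue kallikrein Klk1 had 94 counts in LA and 1 count in RA, a ratio of 85.1 per unit of library (95% counting interval 14.9 to 3397). Klk15 had 77 counts in LA and 0 in RA, at least 23.2-fold higher against a floor of 3 counts over the group. The 2 kallikrein genes overlap on the same strand, so the counting could have split or dropped their reads and the single-gene values are uncertain. LOC259244, of the alpha-2u globulin family, was higher in LA (1.79 and 0.103 CPM) and shares sequence with close copies, so it is uncertain too.

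Sfrp1, a secreted WNT antagonist, was among the 10 genes with the smallest p-values on the higher side. It had 183, 147, 174 and 169 CPM in LA, against 57.7, 55.4, 55.4 and 56.7 CPM in RA (1.58 ± 0.07, adjusted p = 1.96e-07). Jam2, a junctional adhesion molecule, averaged 406 ± 21.6 CPM in LA and 160.5 ± 13.1 CPM in RA (adjusted p = 5.41e-07). Zc2hc1a, a zinc finger gene, averaged 61.5 ± 6.96 CPM in LA and 18.7 ± 1.38 CPM in RA. The chambers did not overlap for any of the 3. Xk, a membrane transporter of red cells and muscle, Entpd2, an ectonucleotidase, and Rapgef4, the cyclic AMP sensor Epac2, had log2 fold changes of 1.36 ± 0.08, 1.24 ± 0.07 and 1.64 ± 0.11. Shmt2, the mitochondrial serine hydroxymethyltransferase, averaged 88.3 ± 9.35 CPM in LA and 39.97 ± 3.35 CPM in RA.

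On the lower side, Vsig4, a complement receptor of tissue macrophages, came next to Bmp10. It had 0, 0.0435, 0.143 and 0 CPM in LA, against 9.31, 8.96, 8.66 and 12.3 CPM in RA, a log2 fold change of -7.55 ± 0.41 (adjusted p = 6.77e-07), and LA held 0, 1, 3 and 0 counts. Other macrophage markers differed far less, with Adgre1 (F4/80) at 9.54 ± 1.08 CPM in LA and 17.9 ± 2.62 CPM in RA and Mrc1 at 40.2 ± 5.81 and 40.8 ± 7.49 CPM. Cxcl13, the chemokine that draws in B cells, had 1.83, 1.001, 1.77 and 0.601 CPM in LA, against 25.6, 15.3, 18.5 and 10.7 CPM in RA (-3.74 ± 0.39, adjusted p = 0.000673). The terminal complement gene C6 had 4.55, 1.96, 2.72 and 2.35 CPM in LA, against 33.3, 29.5, 28.6 and 25.9 CPM in RA (-3.33 ± 0.22, adjusted p = 2.35e-05). C7, which acts beside C6 in the membrane attack complex, was lower as well at 706 ± 84.9 CPM in LA and 1282 ± 123 CPM in RA. Of 25 tested complement and coagulation genes, 1 was higher and 2 were lower (5 and 5 with rat as a block).

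Gabra3, a GABA receptor subunit, had 1.16, 0.827, 0.955 and 0.951 CPM in LA, against 8.39, 9.58, 7.79 and 8.89 CPM in RA (-3.15 ± 0.16, adjusted p = 5.41e-07). Ntsr1, the neurotensin receptor, averaged 0.216 ± 0.156 CPM in LA and 4.24 ± 2.28 CPM in RA, and Sctr, the secretin receptor, 0.527 ± 0.308 and 4.801 ± 2.04 CPM. Adgra1, an adhesion receptor, averaged 0.321 ± 0.116 CPM in LA and 5.23 ± 2.04 CPM in RA. The chambers did not overlap for any of the 4. Slc18a1, a vesicular monoamine transporter, Syt8, a synaptotagmin of secretory cells, Cpn1, the plasma carboxypeptidase N, Il31ra, a cytokine receptor, and Bcan, a matrix proteoglycan of brain, were each under 1 CPM in LA on average and between 1.38 and 3.13 CPM in RA. Ifitm10, of the interferon-induced transmembrane family, averaged 2.49 ± 0.442 CPM in LA and 16.2 ± 1.996 CPM in RA (adjusted p = 6.77e-07). Gpd1, the cytosolic glycerol-3-phosphate dehydrogenase, averaged 12.4 ± 0.795 CPM in LA and 36.3 ± 2.796 CPM in RA, but was not called in the fit with all 5 regions (adjusted p = 0.468). Slc24a4, a sodium, potassium and calcium exchanger, averaged 17.3 ± 2.498 CPM in LA and 64.3 ± 9.06 CPM in RA (-1.89 ± 0.13, adjusted p = 8.64e-06).

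The insulin-like growth factor axis was lower in LA in 5 of 15 tested members and higher in 0. All genes tested gave 4.26% lower and 4.37% higher. At an unadjusted p under 0.05 or by DESeq2, 0 members were higher, and 8 were lower under the rat block. Igf2, the fetal growth factor expressed from the paternal allele, had 39.8, 37.4, 71.2 and 37.8 CPM in LA, against 285, 351, 362 and 351 CPM in RA (-2.86 ± 0.24, adjusted p = 0.000529). Rat 3 was highest of the 4 LA samples and still far below RA. Mir675, the microRNA gene inside the neighbouring imprinted H19 transcript, had 8.603, 10.7, 21.01 and 8.76 CPM in LA, against 31.3, 49.4, 43.6 and 40.6 CPM in RA (-1.75 ± 0.32, adjusted p = 0.0194). Rat 3 was again the highest in LA, and the call was lost in 6 of the 8 fits that leave out 1 library (adjusted p up to 0.0617). Reads at this locus in a library of long RNA stand for precursor or host transcript and not for the mature arms, and H19 itself was not analysed here. The 2 mature arms are shown, from RefSeq on GRCr8, with the seed (bases 2 to 8) in capitals, because they share no seed.
rno-miR-675-5p: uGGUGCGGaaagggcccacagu
rno-miR-675-3p: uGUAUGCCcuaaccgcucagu
The binding proteins Igfbp3 (60.2 ± 6.56 CPM in LA and 156 ± 39.3 CPM in RA, adjusted p = 0.00329) and Igfbp5 (1154 ± 180.1 and 2002 ± 159 CPM, adjusted p = 0.000579) were lower, as was the clearance receptor Igf2r (-0.36 ± 0.07, adjusted p = 0.00727). Igf1 (0.07 ± 0.12) and its receptor Igf1r (-0.38 ± 0.13) did not pass the test, and Igf1r passed with rat as a block (adjusted p = 0.0352). The median over the axis was -0.38.

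On a list named for the sinoatrial node program, 5 of 14 tested genes were lower in LA and 1 was higher. The shares over all genes tested were 4.26% lower and 4.37% higher. The list was not set by node levels in these data, and Cacna1g for one was lower in sSAN than in RA, as given below. Whether these calls stand for node tissue in the RA pieces was not tested. Hcn4, the pacemaker channel, had 6.02, 4.79, 8.21 and 4.05 CPM in LA, against 22.9, 20.7, 18.5 and 18.4 CPM in RA (-1.80 ± 0.19, adjusted p = 0.000184). With all 18 libraries scaled together, Hcn4 averaged 5.43 CPM in LA, 18.9 in RA, 91.3 in sSAN, 56.2 in iSAN and 15.1 in LV. On the same scale Shox2 averaged 1.55 CPM in LA, 2.62 in RA, 40.8 in sSAN and 45.6 in iSAN. Shox2, the node's defining factor, was thus far closer to its LA level than to its node level in the RA pieces, and it gave no call between LA and RA. The T-type calcium channel gene Cacna1g averaged 118 ± 18.9 CPM in LA and 257 ± 35.5 CPM in RA (adjusted p = 0.000688), and in sSAN it averaged 122 CPM against 241 CPM in RA on the common scale. Kcnj3, a subunit of the acetylcholine-activated potassium channel, had 233, 236, 218 and 245 CPM in LA, against 297, 310.1, 319.5 and 339.5 CPM in RA (-0.44 ± 0.06, adjusted p = 0.000654, 0.22 in the fit with all 5 regions). Its partner Kcnj5 gave no call (-0.05 ± 0.06), while Rgs6, which shortens the muscarinic signal to that channel, was lower (-0.62 ± 0.07, adjusted p = 0.000138). Vsnl1, a calcium sensor, was lower (-0.38 ± 0.08). In the fit with all 5 regions Rgs6 and Vsnl1 were not called (adjusted p = 0.146 and 0.468). Smoc2, a matrix protein on this list, was the gene called higher, with 19.3, 24.1, 21.7 and 19.6 CPM in LA, against 5.42, 4.25, 5.28 and 2.88 CPM in RA (2.25 ± 0.17, adjusted p = 1.41e-05).

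Among 22 sodium and calcium channel genes, 3 were higher and 6 were lower in LA (5 and 8 with rat as a block). Cacna2d2, an auxiliary subunit of calcium channels, had 79.6, 76.2, 69.9 and 84.2 CPM in LA, against 182, 157, 172 and 194 CPM in RA (-1.19 ± 0.08, adjusted p = 2.65e-06). Cacna2d3 (-0.90 ± 0.14), the T-type gene Cacna1h (-0.61 ± 0.08) and Scn7a, the sodium sensor channel (-0.63 ± 0.10), were lower too. In the fit with all 5 regions Cacna1h and Scn7a were not called (adjusted p = 0.369 and 0.104). The L-type gene of working muscle, Cacna1c, had a log2 fold change of -0.02 ± 0.09. The neuronal channels Scn1a (8.04 ± 1.75 CPM in LA and 2.995 ± 0.881 CPM in RA) and Scn3a (1.81 and 0.538 CPM) and the leak channel Nalcn (2.297 and 0.485 CPM) were higher at low levels.

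Potassium channel genes gave 3 higher and 5 lower of 31 (4 and 9 with rat as a block). Kcnn3, a small-conductance calcium-activated channel linked to human atrial fibrillation, had 3.57, 5.96, 3.06 and 3.05 CPM in LA, against 0.512, 1.19, 0.512 and 0.354 CPM in RA (2.60 ± 0.37, adjusted p = 0.000845). Kcnk1, a tandem-pore channel, was higher (2.60 ± 0.63, adjusted p = 0.0305), but rat 2 was low in LA, the groups overlapped, and the call was lost in 7 of the 8 fits that leave out 1 library (adjusted p up to 0.0897). Kcnma1, the large-conductance channel, was higher at low level (1.46 CPM in LA and 0.459 CPM in RA). On the lower side, Kcnc4, a Kv3 channel, averaged 0.192 ± 0.111 CPM in LA and 2.29 ± 0.7997 CPM in RA (-3.51 ± 0.44, adjusted p = 0.000362). The background channel Kcnk3 (TASK-1), known as an atrial channel in humans, averaged 151 ± 10.7 CPM in LA and 205 ± 14.7 CPM in RA, but was not called in the fit with all 5 regions (adjusted p = 0.305). Abcc9, the regulatory subunit of the ATP-sensitive channel, averaged 302 ± 32.7 CPM in LA and 466 ± 58.5 CPM in RA, and Kcnq1 differed by -0.27 ± 0.07 on the log2 scale. With 1 library left out, Kcnma1 lost its call in 5 of 8 fits (adjusted p up to 0.0829) and Kcnq1 in 6 of 8 (0.0978).

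In calcium handling, 2 of 24 genes were higher and 4 were lower (4 and 6 with rat as a block). Camk2b, the neuronal form of the calcium and calmodulin-dependent kinase, averaged 5.699 ± 0.543 CPM in LA and 1.22 ± 0.791 CPM in RA (2.22 ± 0.34, adjusted p = 0.00224), and the cardiac form Camk2d 189 ± 11.2 and 142 ± 15.02 CPM (0.41 ± 0.08, adjusted p = 0.00577). The sodium and calcium exchanger Slc8a1 had 274, 274, 281 and 267 CPM in LA, against 354, 349.8, 342 and 345 CPM in RA (-0.34 ± 0.05, adjusted p = 0.00086, 0.245 in the fit with all 5 regions). Sorcin (Sri), a regulator of the release channel, was lower (-0.52 ± 0.08). The release channel Ryr2 (0.15 ± 0.10) and phospholamban (Pln, -0.16 ± 0.09) gave no call, and Pln passed with rat as a block (adjusted p = 0.0377). Of 31 sarcomere and Z-disc genes, 6 were higher and 1 was lower (7 and 3 with the block). Myl3, the ventricular essential light chain, had 27.4, 21.5, 32.8 and 30.1 CPM in LA, against 9.72, 5.64, 9.68 and 7.78 CPM in RA (1.77 ± 0.18, adjusted p = 0.000271), while LV averaged 8149 CPM on the common scale. Myom2, the M-band protein of fast fibres, averaged 3097 ± 643 CPM in LA and 1609.6 ± 433 CPM in RA. Actn2 (0.30 ± 0.07) and Nebl (0.29 ± 0.08), both of the Z-disc, differed by less, and Tpm2, a tropomyosin, was the gene called lower (-0.53 ± 0.13). Among connexins and intercalated disc genes, 4 of 21 were higher and 2 were lower (5 and 5 with the block). Desmocollin (Dsc2) averaged 65.5 ± 8.82 CPM in LA and 27.7 ± 3.32 CPM in RA (1.24 ± 0.11, adjusted p = 4e-05), and Dsg2, its desmoglein partner, was lower by a small amount (-0.25 ± 0.06). The connexin genes Gja3 (0.68 ± 0.07) and Gja4 (0.75 ± 0.18) were higher, while the main muscle connexins Gja1 (-0.27 ± 0.09) and Gja5 (0.23 ± 0.22) did not pass, Gja1 passing with rat as a block (adjusted p = 0.000405). Myom2, Nebl, Tpm2 and Gja4 lost their calls in 5 or 6 of the 8 fits that leave out 1 library (adjusted p up to 0.12, 0.112, 0.11 and 0.0926), Dsg2 in 4 (0.0749) and Actn2 without RA of rat 1 (0.0639).

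Matrix and stromal genes leaned to LA, beside 4.37% higher and 4.26% lower over all genes tested. Of 16 fibroblast genes 7 were higher and 1 was lower (median 0.41), and of 20 collagens 7 were higher and 1 was lower (median 0.38), with 14 higher and 2 lower collagens under the rat block. The microfibrillar Col6a1 had 245, 247, 221 and 207 CPM in LA, against 142, 151, 131 and 117 CPM in RA (0.77 ± 0.08, adjusted p = 0.000136), and its chain partner Col6a2 240.5 ± 7.49 and 144 ± 16.6 CPM. The basement membrane chains Col4a5 (1.00 ± 0.14) and Col4a6 (1.78 ± 0.25), which lie side by side on the X chromosome, were both higher. Fibrillar Col1a1 (0.40 ± 0.23) and Col3a1 (0.20 ± 0.18) were not called and were called with rat as a block (adjusted p = 1.43e-05 and 0.0116). Pi16, a marker of adventitial fibroblasts, averaged 63.7 ± 9.43 CPM in LA and 26.0 ± 2.84 CPM in RA, and Fap, the fibroblast activation protease, 9.35 ± 0.839 and 2.65 ± 1.26 CPM (1.82 ± 0.26, adjusted p = 0.00113). Cd34 (0.71 ± 0.07), Lum (0.56 ± 0.10) and Pdgfra (0.54 ± 0.10) were higher, and Tcf21, a fibroblast transcription factor, was lower (-0.49 ± 0.11), a call lost in 4 of the 8 fits that leave out 1 library (adjusted p up to 0.0649). With all 18 libraries scaled together, the summed level of the fibroblast list was 7354 to 7711 CPM in LA and 5583 to 6564 CPM in RA. Abundant members weigh most in this sum, with Gsn at 238535 unscaled counts in LA and 161094 in RA, and Col3a1 at 212165 and 165585. Dcn, another member, had 82883 and 75132 unscaled counts, and the LA libraries were the deeper ones. The part of the fibroblast sum in the collagen and protease values was not tested.

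Matrix proteases and thrombospondins gave 5 higher and 1 lower of 22 (9 and 2 with rat as a block). Besides Adamts8 and Thbs4, Mmp2, a gelatinase, averaged 348 ± 25.5 CPM in LA and 215 ± 24.5 CPM in RA, and Adamts5, an aggrecanase, 34.4 ± 4.88 and 18.9 ± 1.75 CPM. Fbln5, an elastic fibre protein, averaged 34.4 ± 2.31 CPM in LA and 14.6 ± 1.09 CPM in RA (1.23 ± 0.08, adjusted p = 3.01e-06). Smooth muscle genes were higher in 5 of 15 cases and lower in 1 (6 and 2 with the block). Tagln (transgelin, which binds actin in contractile cells) had 21.98, 22.4, 29.7 and 29.8 CPM in LA, against 8.698, 8.597, 8.76 and 7.48 CPM in RA (1.63 ± 0.12, adjusted p = 8.27e-06), and Myh11, the smooth muscle myosin, averaged 55.9 ± 8.98 and 36.4 ± 3.09 CPM. Lmod1, a leiomodin of smooth muscle, ran the other way at 7.497 ± 1.21 CPM in LA and 15.1 ± 2.25 CPM in RA (adjusted p = 0.000831, 0.146 in the fit with all 5 regions). Acta2, the smooth muscle actin, had 52.7, 43.7, 46.4 and 48.9 CPM in LA, against 73.5, 17.6, 21.8 and 17.3 CPM in RA, where rat 1 stood far above the other 3, and gave no call. With all 18 libraries scaled together, the summed level of the 15 genes overlapped, at 1646 to 1779 CPM in LA and 1530 to 1792 CPM in RA.

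Of 17 vascular endothelial genes 2 were higher and 2 were lower (5 and 3 with rat as a block), while the macrophage and the T and B cell genes that passed the test were all lower. Kdr, the main receptor of vascular endothelial growth factor, had 64.9, 67.4, 60.7 and 68.2 CPM in LA, against 115, 92.2, 119 and 113 CPM in RA (-0.75 ± 0.08, adjusted p = 0.000107), while Tie1 was higher by a small amount (0.22 ± 0.06) and lost the call in 5 of the 8 fits that leave out 1 library (adjusted p up to 0.0969). Of 7 lymphatic genes, Ccl21 and Mmrn1 were higher and Reln, a secreted glycoprotein, was lower (3.33 ± 1.35 CPM in LA and 10.6 ± 0.993 CPM in RA), with 2 higher and 2 lower under the block. The defining lymphatic markers Prox1 (-0.17 ± 0.09), Flt4 (0.23 ± 0.16) and Pdpn (-0.09 ± 0.09) gave no call. All 11 tested macrophage genes had a negative log2 fold change. Of these, 5 were called lower (7 with rat as a block), beside 4.26% of all genes tested. None of the 5 kept its call in the fit with all 5 regions. There the adjusted p was 0.087 for Adgre1, 0.411 for Cd163, 0.196 for C1qa, 0.407 for C1qb and 0.334 for C1qc. In the 70-day rats alone Cd163, C1qa, C1qb and C1qc were not called. Cd163, a scavenger receptor, averaged 28.3 ± 3.71 CPM in LA and 45.0 ± 6.86 CPM in RA, and the complement C1q chains C1qa (-0.56 ± 0.09), C1qb (-0.47 ± 0.12) and C1qc (-0.47 ± 0.11) differed by like amounts. C1qb lost its call in 7 of the 8 fits that leave out 1 library (adjusted p up to 0.112) and C1qc in 6 (0.0754). Of 9 T and B cell genes, Lck (-1.19 ± 0.24) and Cd8a (-0.95 ± 0.20) were lower, with Lck at 1.67 ± 0.2999 CPM in LA and 3.81 ± 1.03 CPM in RA (6 lower with rat as a block). All 4 tested erythroid genes had a positive log2 fold change and 0 were called, although 1 had an unadjusted p under 0.05 and 3 were called with rat as a block (0 by DESeq2). Haemoglobin Hbb had 90.4, 33.5, 19.6 and 19.9 CPM in LA, against 29.2, 12.4, 11.6 and 10.5 CPM in RA, and rat 1 stood above the other 3 in each chamber (adjusted p = 0.313, 0.00465 with rat as a block).

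Of 10 genes of the natriuretic peptide axis, Mme was higher and Nppa and Furin were lower, and with rat as a block 3 were higher and 3 lower. Nppa, which encodes atrial natriuretic peptide, had 24768, 26737, 30414 and 31499 CPM in LA, against 38392, 33469, 37857 and 35419.7 CPM in RA (-0.36 ± 0.10, adjusted p = 0.0395). The chambers did not overlap, but the lowest RA value, from rat 2, was close to the highest LA value, from rat 4. The Nppa call was lost in 6 of the 8 fits that leave out 1 library (adjusted p up to 0.119) and in the fit with all 5 regions (0.798). Nppb, the B-type peptide, had 284, 271, 660.4 and 372 CPM in LA, against 934, 467, 785 and 576 CPM in RA, which overlapped and did not pass the test (adjusted p = 0.291). Furin, a convertase that cleaves the B-type precursor and many growth factors, had 134, 129, 129 and 130.3 CPM in LA, against 190.1, 186, 177 and 178 CPM in RA (-0.49 ± 0.05, adjusted p = 9.03e-05). Corin, the convertase of the atrial precursor, gave no call (-0.04 ± 0.06). Of 13 genes of the angiotensin, endothelin and adrenomedullin systems 1 was higher and 4 were lower (1 and 6 with rat as a block). Angiotensinogen (Agt) averaged 4.44 ± 1.098 CPM in LA and 14.5 ± 3.97 CPM in RA, and the converting enzyme Ace 17.98 ± 3.896 CPM in LA and 29.9 ± 5.12 CPM in RA, both lower in LA. Ednra, an endothelin receptor, averaged 92.3 ± 15.4 CPM in LA and 149 ± 21.1 CPM in RA (-0.69 ± 0.14, adjusted p = 0.019). Adrenomedullin (Adm) averaged 17.95 ± 2.63 CPM in LA and 35.6 ± 4.06 CPM in RA (adjusted p = 0.00016), and Ramp1, a receptor partner of the related peptide CGRP, was the gene called higher (0.90 ± 0.18). Ace lost its call without LA of rat 2 or RA of rat 4 (adjusted p up to 0.0721), and Ednra without RA of rat 1, 2 or 4 (up to 0.0616).

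Guidance and neurotrophin genes gave 8 higher and 3 lower of 37 (13 and 5 with rat as a block). The secreted semaphorins Sema3a (0.63 ± 0.11), Sema3c (0.56 ± 0.09), Sema3d (0.79 ± 0.14) and Sema3g (0.76 ± 0.12), which repel axons and guide vessels, were all higher, while Sema3b (-0.48 ± 0.12) and the transmembrane Sema5a (-0.67 ± 0.08) were lower. Bdnf, a neurotrophin, averaged 7.37 ± 1.84 CPM in LA and 3.07 ± 1.41 CPM in RA, and Ret, the receptor of glial-derived neurotrophic factors, had 7.80, 11.01, 8.69 and 9.26 CPM in LA, against 1.38, 1.55, 0.666 and 1.16 CPM in RA (2.94 ± 0.22, adjusted p = 8.64e-06). Among 25 WNT genes 3 were higher and 3 were lower, and the secreted antagonists ran in both directions. Frzb averaged 15.5 ± 3.59 CPM in LA and 7.38 ± 1.002 CPM in RA, higher as Sfrp1 was. Sfrp2 averaged 10.4 ± 1.54 CPM in LA and 27.8 ± 7.21 CPM in RA (-1.41 ± 0.18, adjusted p = 0.00094), and Wif1 was lower at 1.84 CPM in LA and 3.03 CPM in RA. Cyp26b1, which degrades retinoic acid, was the gene called lower among 14 of that pathway (2.06 ± 1.03 CPM in LA and 5.89 ± 1.68 CPM in RA). With 1 library left out, Sema3b, Bdnf, Wif1 and Cyp26b1 each lost the call in 5 or 6 of 8 fits, with adjusted p up to 0.0742, 0.0777, 0.0726 and 0.0907.

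In metabolism, glycolytic genes were lower in LA in 7 of 27 cases and higher in 0, beside 4.26% and 4.37% of all genes tested. At an unadjusted p under 0.05, 3 were higher, with 2 by DESeq2 and 5 with rat as a block. The glucose transporter Slc2a1 (GLUT1) had 4.502, 8.88, 3.295 and 3.404 CPM in LA, against 30.8, 42.6, 25.7 and 32.5 CPM in RA (-2.70 ± 0.35, adjusted p = 0.00357). Lactate dehydrogenase Ldha had 744, 755, 812 and 798 CPM in LA, against 1138, 1079, 1124 and 1183 CPM in RA (-0.54 ± 0.06, adjusted p = 0.000125), and muscle enolase Eno3 averaged 224 ± 26.2 and 407 ± 41.5 CPM. The chambers did not overlap for these 3. Phosphofructokinase genes Pfkp (-0.62 ± 0.09) and Pfkl (-0.39 ± 0.08), aldolase Aldoc (-1.14 ± 0.19) and Eno1 (-0.25 ± 0.05) were lower. In fatty acid oxidation 20 of 21 genes had a positive log2 fold change (median 0.22), but 1, Etfa of the electron transfer flavoprotein, was called (339 ± 34.7 CPM in LA and 245 ± 23.2 CPM in RA, adjusted p = 0.00493), with 5 by DESeq2 and 13 with rat as a block. In the citric acid cycle 19 of 20 were positive (median 0.10) with 0 calls (2 at an unadjusted p under 0.05, 1 by DESeq2 and 2 with the block). The 39 nuclear oxidative phosphorylation subunits had 18 positive values, a median of -0.02 and 0 calls (4 at an unadjusted p under 0.05, 1 by DESeq2 and 3 with the block). The mitochondrial genome gave 19.5% of the counts in LA and 17.5% in RA, and with its transcripts left out each of the 8 genes called here kept its call. The fit with all 5 regions kept Slc2a1, Ldha, Pfkp and Aldoc. It lost Eno3 (adjusted p = 0.0521), Etfa (0.358), Pfkl (0.382) and Eno1 (0.717). Of the genes it kept, Slc2a1 was not called at 59 days (0.121), nor were Pfkp (0.211) and Aldoc (0.186) at 70 days.

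Markers of other tissues and cell states gave few calls in either direction. Of 10 Schwann cell and glia genes 1 was higher, the myelin gene Mbp (0.73 ± 0.14), and of 6 neuron genes Ret was higher and Prph, a neuronal filament, was lower (-1.22 ± 0.19). Of 14 mesothelium and epicardium genes the WNT agonist Rspo1 was higher (0.53 ± 0.12) and Wt1, a zinc finger factor of epicardium and coronary endothelium, was lower (-0.49 ± 0.12). Ttr (transthyretin) and Tf (transferrin), both plasma carriers best known from liver, were lower at 5.196 ± 1.69 and 103 ± 4.22 CPM in LA, against 14.8 ± 3.01 and 137 ± 10.9 CPM in RA, while albumin was below the count needed for a test. Hopx, a homeodomain protein of muscle and of lung epithelium, averaged 61.5 ± 9.13 CPM in LA and 126 ± 14.3 CPM in RA (-1.04 ± 0.11). Of 6 skeletal muscle genes the creatine kinase Ckm was lower (-0.42 ± 0.08), of 4 mast cell and neutrophil genes the chymase Cma1 was lower (-1.91 ± 0.39), and of 9 white adipocyte genes Pparg was higher (0.84 ± 0.15) and Cfd was lower (-0.60 ± 0.15). Brown adipocyte (5 tested), cartilage (3), antigen presentation (10), thymus and thyroid (1) and cell cycle (15) lists held 0 calls, with 1, 1, 2, 0 and 0 genes at an unadjusted p under 0.05 and 1 brown adipocyte gene by DESeq2. With rat as a block 1 brown adipocyte gene was lower, 1 cartilage gene was higher, and 2 antigen presentation genes were higher and 2 lower. Of 28 immediate early genes 1 was higher (Dusp1, 0.39 ± 0.11) and 1 was lower (Maff, -0.56 ± 0.12), with 1 and 2 under the block. Of 18 heat shock genes Hspb8 was the one called, and lower (-0.42 ± 0.07), whereas 4 were higher and 2 lower with the block. The paired clock repressors split, with Bhlhe41 higher (0.45 ± 0.12) and Bhlhe40 lower (-0.38 ± 0.07) among 16 clock genes. Among 15 genes of adrenergic, muscarinic and adenosine signalling Rgs4 was higher (0.49 ± 0.10), and Gnao1 (-0.88 ± 0.11) and Rgs6 were lower. Of 9 ventricular muscle genes Myl3 was called higher (2 higher and 3 lower with rat as a block). Of 17 elastic fibre and vessel wall genes Fbln5 and Fbln2 (0.80 ± 0.09) were called higher, but with the block 4 were higher and 4 lower. Of 4 tested Hox genes Hoxd8 was higher, and of 11 endocardium genes Wt1 was lower. With the block there were 3 higher and 1 lower Schwann cell and glia genes, 1 and 3 of mesothelium and epicardium, 1 and 2 of mast cell and neutrophil, 2 and 2 of white adipocyte, 4 and 2 of adrenergic, muscarinic and adenosine signalling, 2 and 1 of the clock, and 0 and 2 of endocardium. With 1 library left out, Wt1 and Cfd lost the call in 4 of 8 fits (adjusted p up to 0.0813 and 0.089), Dusp1 and Bhlhe41 in 6 and 5 (0.13 and 0.098), and Mbp without RA of rat 2 (0.0516).

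**Figure D4:**
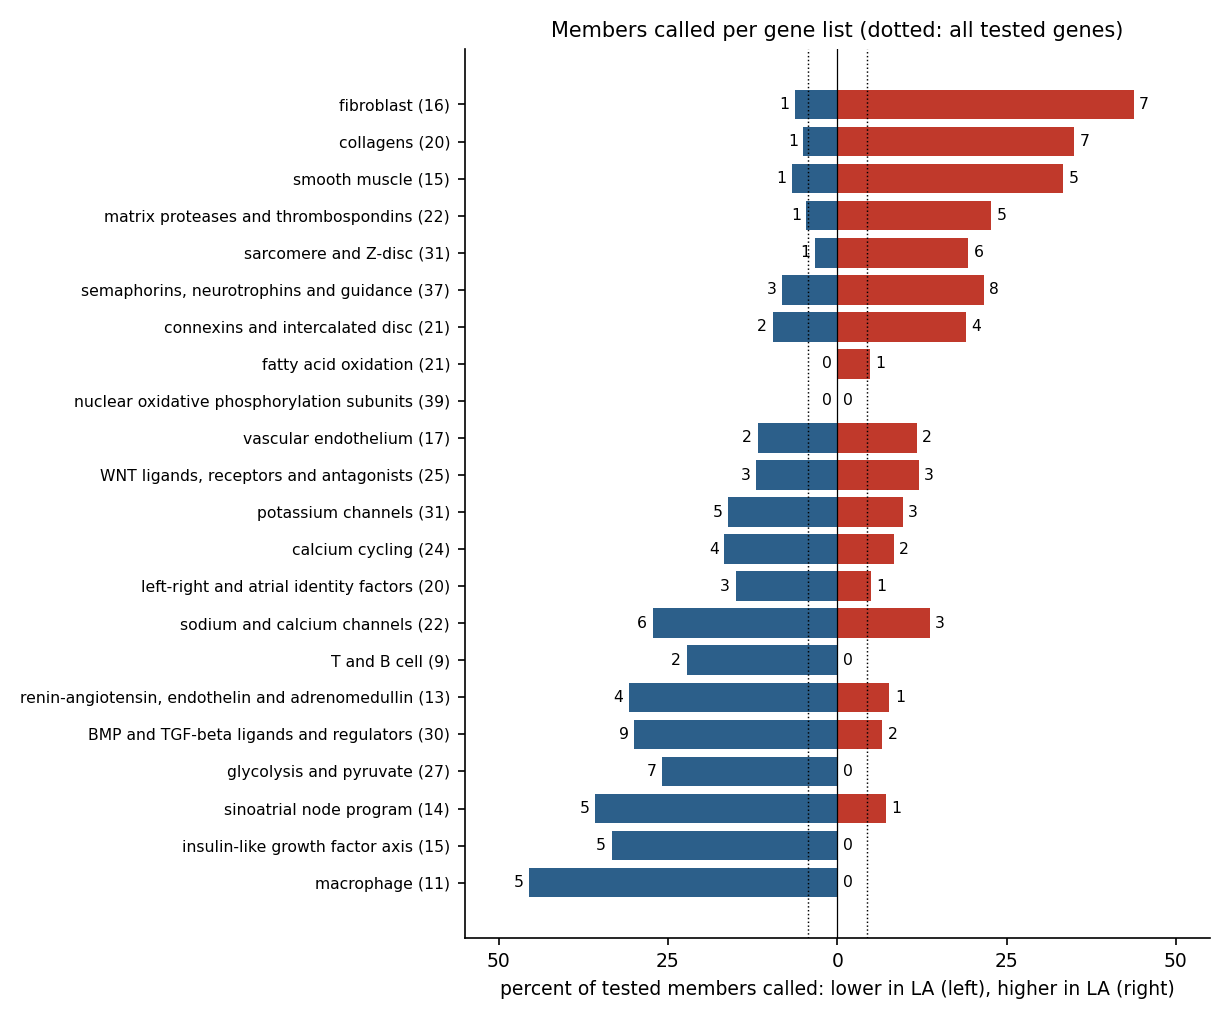
Bars give the percent of tested members called lower in LA (blue, left) and higher in LA (red, right) for 22 gene lists, with the number called at each bar, the number tested in brackets and dotted lines at the share of all tested genes (4.26% lower and 4.37% higher). Fibroblast genes (7 of 16) lie at the higher end and macrophage genes (5 of 11) at the lower end.

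The other regions place these chamber differences. With the 18 libraries scaled together, Bmp10 averaged 0.233 CPM in LA, 2001 in RA, 313 in sSAN and 309 in iSAN, and both LV libraries were at 0. Within the nodes Bmp10 spread from 21.3 to 649.5 CPM in sSAN, so the node mean stands for very unequal pieces. Smad7 averaged 70.5 CPM in LA, 146 in RA, 73.2 in sSAN, 80.3 in iSAN and 47.7 in LV. Its node means thus lay nearer to LA than to RA. Hamp averaged 102 CPM in LA, 855 in RA, 501 in sSAN, 538 in iSAN and 3.56 in LV, with node means between the atria. How either gene relates to Bmp10 was not tested. AABR07072853.5 averaged 48.3 CPM in LA and 0.372 in RA, with 52.7 in LV, 22.1 in sSAN and 16.7 in iSAN, and RA was the one region under 1 CPM. Adamts8 averaged 79.5 CPM in LA, 4.37 in RA and 1.53 in LV, with 20.5 and 20.2 in sSAN and iSAN. Vsig4 was at 0.04404 CPM in LA and 0.0339 in LV, against 9.18 in RA, 4.63 in sSAN and 4.11 in iSAN. Its sSAN values ran from 1.06 to 9.99 CPM, and the highest lay within the RA range of 8.15 to 11.6 CPM. Igf2 averaged 43.8 CPM in LA and 316 in RA, with 35.6 in iSAN and 27.3 in LV, and in sSAN it ran from 47.6 to 273.9 CPM. The highest sSAN value overlapped the RA range, which began at 265.8 CPM.

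**Figure D5:**
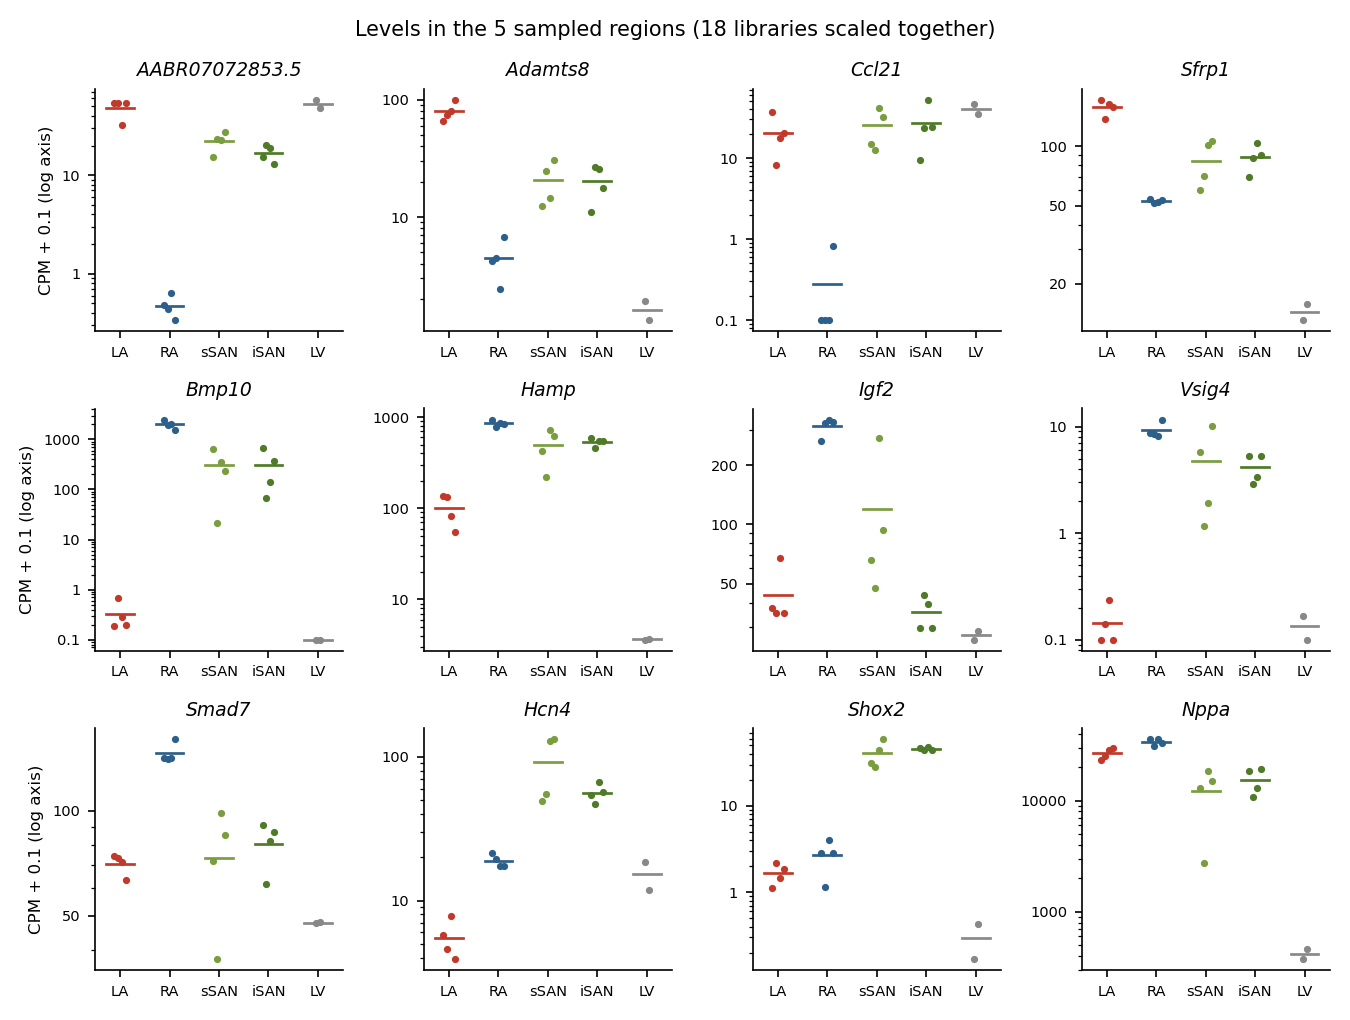
CPM + 0.1 on log axes, 1 panel a gene, for 12 genes in LA, RA, sSAN, iSAN (4 libraries each) and LV (2 libraries), all scaled together, with a line at each mean. AABR07072853.5 and Ccl21 are lowest in RA, Bmp10 and Vsig4 are near 0 in LA and LV, and Shox2 marks the node samples (40.8 and 45.6 CPM) apart from LA and RA.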

How the data were processed

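RNA-seq counts of 8 libraries (LA and RA of 4 male rats) were used. The authors filtered paired-end reads, aligned them with HISAT2 to an Ensembl rat reference whose build name is not given in the sources used here, and deposited raw read counts per gene from HTSeq 0.6.1. The authors also deposited FPKM values per library, which were not used for any value here, and fold changes and p-values of their own DESeq2 comparisons between regions, which were not used. The strand setting of the counting was not stated, and 72 per-sample columns were not used.

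Counts were tested as deposited with edgeR 4.0.16 (R 4.3.3): filterByExpr left 13904 of 32883 genes, scaling was by TMM over the 8 libraries, and the robust quasi-likelihood test compared LA with RA without a block, with Benjamini-Hochberg adjustment over all genes tested. Calls required an adjusted p under 0.05, or under 0.01 with a fold above 3. Levels are CPM with TMM-scaled library sizes. Libraries with the same title ending were taken as one rat: their deviations from the group means correlated at 0.270 to 0.329, against -0.204 to 0.0928 between different rats (12959 genes). Nothing says that each library is more than 1 piece of 1 heart, so p-values measure the spread between these samples. Depth was 18548014 to 22562828 counts a library, intervals and floors cover counting error only, and confidence intervals are at a level of 0.95 with a floor of 3 counts.

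Genes were named by rule: the 15 highest and 15 lowest stringent log2 fold changes with a mean of 1 CPM or more and one direction in all 4 rats, the 10 smallest p-values in each direction, up to 4 genes of each of 50 lists (899 of 941 symbols matched), and the listed identity factors. A few genes that the rule or the lists would hold are not reported here. Members, lists and tests were chosen with earlier results of these data known, and genes named beyond the rule were chosen after their values were seen. Promoters and miRNAs came from RefSeq (GRCr8), which gave 9 of 10 promoters looked up. The tests were repeated with the rat block, with each age alone, with all 5 regions in the fit, without the filter, with RLE scaling, with mitochondrial genes left out, with each library left out, and with DESeq2 1.42.0. Scripts were tested on simulated data.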

Additional observations from a re-analysis of the deposited data

Results flagged for a closer look

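The log2 fold change of LA over RA differed between the 59-day and the 70-day rats for 3 of 13904 genes. The test was of the interaction of chamber and age (edgeR quasi-likelihood test, 2 rats at each age). At an unadjusted p under 0.05 there were 372 genes. Each age is 1 pair of rats, so age cannot be told apart from any other difference between the pairs. Fam78a, a gene of unknown function, had 38.5, 39.2, 12.99 and 11.5 CPM in LA, against 43.4, 48.5, 38.8 and 41.2 CPM in RA, and its log2 fold change was 1.46 lower in the 70-day rats than in the 59-day rats (difference -1.46, adjusted p = 0.00947). The LA values of the 70-day rats were the low ones. Rplp2, a ribosomal stalk protein, had 2.36, 1.74, 2.72 and 3.103 CPM in LA, against 16.3, 22.1, 2.82 and 1.72 CPM in RA (difference 3.58, adjusted p = 0.0146), with the 59-day RA samples standing apart. Pnpla2, the adipose triglyceride lipase, had 2.23, 1.44, 2.48 and 2.102 CPM in LA, against 1.79, 1.61, 15.1 and 20.9 CPM in RA (difference -3.08, adjusted p = 0.0352), with the 70-day RA samples standing apart. Rplp2 and Pnpla2 lie 4111 bases apart on the same strand of chromosome 1.

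For each of the 227 tested genes named in the text, and for 4 quantities of each library, the 4 values of each chamber were checked for 1 library standing apart, as the gap between the extreme value and its nearest neighbour divided by the range of the 4. Of 462 groups looked at, 30 passed Dixon's critical value for 4 samples, and chance alone gives about 1 in 20 groups. In LA the highest value stood apart in rat 1 for Hoxd8 (0.83), Sema3c (0.888) and Frzb (0.834), in rat 3 for Shmt2 (0.891), Igf2 (0.928), Mir675 (0.831) and Hspb8 (0.895) and in rat 4 for Gdf10 (0.89) and Adamts5 (0.875). In LA the lowest value stood apart in rat 3 for Zfhx3 (0.874), AABR07072853.5 (0.966), Igf1r (0.848), Dusp6 (0.87) and Ednra (0.991). In RA the highest value stood apart in rat 1 for Acta2 (0.919), Hbb (0.895), Ace (0.853), Maff (0.901) and Fbln2 (0.861), in rat 2 for Dsc2 (0.977), in rat 3 for Tie1 (0.848) and in rat 4 for Smad7 (0.942), Ccl21 (1), Klk1 (1), Pdgfra (0.845) and Ifit2 (0.854). In RA the lowest value stood apart in rat 1 for Nr2f1 (0.86) and Igf2 (0.856), in rat 3 for Ednra (0.923) and in rat 4 for Tagln (0.872). The quotient is given in brackets. Groups of 4 with 3 libraries at 0, as for Ccl21 and Klk1 in RA, give a quotient of 1 by construction.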

How the results depend on the processing

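With rat as a block (the replicate block), 1247 genes were higher and 1245 lower, and all 1195 calls shared with the unblocked fit kept their direction. The replicate block ended no call among the genes named and added calls for 12 named genes. Sharing the spread with all 5 regions left 318 higher and 228 lower calls, 58.2% of them higher against 50.6% otherwise, and 67 of 183 called genes named lost the call there. The 59-day rats alone gave 311 higher and 303 lower (36 higher at the stringent threshold) and the 70-day rats alone 193 and 191 (23 higher at the stringent threshold), where each chamber had 2 libraries. The fewer samples of these fits are part of their construction. Leaving out 1 library gave 435 to 517 higher and 419 to 502 lower calls, and 45 to 61 and 31 to 40 at the stringent threshold. DESeq2, RLE size factors, no filter and mitochondrial transcripts left out kept the counts over all genes of higher and lower calls, at either threshold, within 1.5 times, and all calls shared between any alternative and the unblocked fit had one direction. Among the genes named, Gbp2 lost its call with RLE size factors (adjusted p = 0.0508), no filter (0.0654) and mitochondrial transcripts left out (0.0518). Myom2 (0.0988) and Tpm2 (0.0679) lost theirs with no filter. Of the 183 called genes named, 102 lost the call in a single-age fit, and 67 kept it in every alternative. The count of genes that differed with age was 11 by DESeq2 and 5 with no filter. The difference in mitochondrial share, 1.999 percentage points, ran from 1.61 to 2.43 with 1 library left out, with 2.43 (exact two-sided permutation p = 0.0286) without RA of rat 3.

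No called gene changed sign under any alternative. Of the 44 uncalled genes named, 10 did. In the 59-day rats alone the log2 fold changes with the other sign were Sln -0.059, Myl4 -0.12, Hey1 0.053 and Pdpn 0.040. In the fit with all 5 regions the log2 fold change with the other sign was Bmpr1a 0.0039. In the 70-day rats alone the log2 fold changes with the other sign were Bmpr2 -0.066, Mrc1 0.039 and Igf1 -0.014. With 1 library left out, the log2 fold change ran for Sln from -0.059 to 0.065, Myl4 from -0.13 to 0.11, Bmpr1a from -0.029 to 0.035, Bmpr2 from -0.059 to 0.088, Prrx1 from -0.025 to 0.19, Mrc1 from -0.12 to 0.11, Igf1 from -0.019 to 0.15 and Cacna1c from -0.079 to 0.056.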

Other observations

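3 further groups of genes, listed after values had been seen and given here as counts with no test, leaned to one chamber. Of 34 tested interferon-stimulated genes, 9 were higher in LA and 0 were lower, beside 4.37% and 4.26% of all genes tested, and 33 had a positive log2 fold change (median 0.38, 16 higher with rat as a block). At an unadjusted p under 0.05, 19 were higher and 0 lower, and by DESeq2 11 and 0. Mx2, an antiviral GTPase, had 36.9, 45.4, 40.2 and 42.1 CPM in LA, against 26.6, 27.3, 30.8 and 29.7 CPM in RA (0.52 ± 0.08), and Irf7, the factor that amplifies the interferon response, 33.7, 43.4, 30.5 and 44.5 CPM in LA, against 30.2, 27.3, 28.4 and 28.6 CPM in RA (0.41 ± 0.11). The guanylate-binding proteins Gbp2 (0.55 ± 0.15) and Gbp5 (0.71 ± 0.12), the membrane tether Bst2 (0.38 ± 0.09) and Ifit2 (0.40 ± 0.09), which binds foreign RNA, were among the rest. With 1 library left out Irf7, Gbp2 and Bst2 lost the call in 5 or 6 of 8 fits (adjusted p up to 0.129, 0.134 and 0.0689), and the LA and RA values of Mx2 and Irf7 did not overlap.

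Of 16 tested ERK feedback and ETS genes, 6 were higher in LA and 0 lower, beside 4.37% and 4.26% of all genes tested. The median was 0.32, with 7 higher and 1 lower with rat as a block. There were 10 and 1 at an unadjusted p under 0.05, and 6 and 0 by DESeq2. Spry4, a feedback inhibitor of receptor tyrosine kinase signalling, had 28.3, 24.2, 25.8 and 23.8 CPM in LA, against 20.7, 14.2, 13.7 and 12.8 CPM in RA (0.73 ± 0.14). Dusp6, the ERK phosphatase, had 21.04, 21.3, 18.8 and 21.4 CPM in LA, against 16.3, 14.4, 14.04 and 13.2 CPM in RA (0.51 ± 0.09), and the ETS factors Etv1 (0.30 ± 0.08) and Etv5 (0.52 ± 0.14) were higher too. Etv1 and Etv5 lost the call in 5 and 6 of the 8 fits that leave out 1 library (adjusted p up to 0.0815 and 0.111).

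Of 38 tested targets of the hypoxia-inducible factors, 17 were lower in LA and 0 were higher, beside 4.26% and 4.37% of all genes tested. The median was -0.24, with 21 lower and 2 higher with rat as a block. At an unadjusted p under 0.05 there were 21 and 1, and by DESeq2 18 and 1. Besides the glycolytic genes already given, Vegfa, the vascular growth factor, had 135, 145, 140.5 and 156 CPM in LA, against 176, 163, 176 and 187 CPM in RA (-0.29 ± 0.06), and Egln3, the oxygen-sensing prolyl hydroxylase, 67.8, 71.5, 94.7 and 86.4 CPM in LA, against 163, 116, 145 and 137 CPM in RA (-0.81 ± 0.13). Stc1, a secreted hormone, had a log2 fold change of -1.18 ± 0.20, the mitophagy receptor Bnip3 -0.37 ± 0.07, Ankrd37 -1.18 ± 0.27 and the oxidoreductase Ero1a -0.40 ± 0.07. The chambers did not overlap for Vegfa and Egln3. Ankrd37 lost its call without LA of rat 1 (adjusted p = 0.0505).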
